A study of Mus musculus with 12 samples.

Results

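The genes whose expression differed between Ezh2-knockout and wild-type CD8 T cells in the same direction in naive and in activated cells are described here. The comparison used all 12 arrays of the series, 6 knockout and 6 wild-type by their titles, with cell state as a term in the model. A gene was counted as shared when its genotype effect over both states passed and its difference between genotypes had the same sign in each state. Of 20962 genes measured, 110 met both conditions.

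The knockout (KO) mice, numbers 4 to 6, were homozygous for floxed Ezh2 alleles and also carried Cre under the Cd4 promoter, which is active in developing T cells, including those that become CD8 cells. The wild-type (WT) mice, numbers 1 to 3, are labelled only as wild type at Ezh2, and whether they carried Cre or a floxed allele is not stated there. All 6 were male C57BL/6 mice of 4 weeks. CD8 cells were drawn from spleen and lymph nodes with antibody-coated beads, at a purity above 93% by flow cytometry. Each mouse gave 1 activated array, from cells stimulated for 3 days on plate-bound anti-CD3 with a costimulatory antibody, and 1 naive array, from freshly isolated cells. That antibody is anti-CD28 in the series description and anti-CD38 in the sample characteristics. The 4 groups were therefore activated KO, activated WT, naive KO and naive WT cells, with 3 arrays in each. About 200 ng of RNA per sample was amplified before hybridization to Affymetrix HT mouse arrays that carry perfect-match probes only.

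Ezh2 is the main catalytic subunit of Polycomb repressive complex 2 (PRC2), which methylates lysine 27 of histone H3 and keeps genes of other lineages and other differentiation stages silent. In T cells it is known for restraining effector and lineage genes, with the T-box factor gene Eomes among its reported targets.

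Values are log2 expression estimates made by the authors with RMA, with array medians between 0.905 and 0.976, and precision is limited by the number of arrays. Each gene is read from 1 probe set, and per-array values are given for mice 4, 5 and 6 in KO and mice 1, 2 and 3 in WT, in that order. An effect is the KO minus WT difference on the log2 scale ± SE with n = 6 arrays per genotype, and its p-value comes from limma and is adjusted over all genes by the Benjamini-Hochberg method, with 0.05 as the threshold. Effects within a state come from a second limma fit with 1 mean per group and n = 3 arrays per group. The CD8 label was borne out by Cd8a (6.71 to 7.81 over the 12 arrays), Cd8b1 (4.61 to 6.73) and Cd3e (6.35 to 7.36). Of genes of other cells, Cd4 read 1.29 to 2.14, above every array median, the B-cell genes Ms4a1 and Cd79a read 0.49 to 1.16 and 0.68 to 1.82, and the natural killer gene Ncr1 read 0.47 to 0.73. Mean levels of marker lists of other cells are given further on.

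The targeted gene was read by 1 probe set, and whether it lies in the deleted part is not known. Ezh2 read 2.72, 3.59 and 3.78 on the activated KO arrays, against 5.56, 5.26 and 5.35 on the activated WT arrays. It read 1.95, 2.14 and 2.18 on the naive KO arrays, against 2.31, 2.16 and 2.42 on the naive WT arrays. The activated groups were far apart, while in naive cells both genotypes were low and their ranges overlapped. Over both states the effect was -1.11 ± 0.27, adjusted p = 0.102, so Ezh2 itself did not pass in the additive model. Its effects were -2.02 in activated and -0.20 in naive cells and differed between states (-1.82 ± 0.28, adjusted p = 0.00371), which enters the residual of a model that fits 1 effect for both. In the fit with 1 mean per group, the effect averaged over states had an adjusted p of 0.000418.

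Of the 110 shared genes, 76 were higher and 34 lower in KO cells, which is 0.525% of all genes tested (0.363% higher and 0.162% lower). All genes whose genotype effect passed had the same sign in both states, as a model with 1 effect for both states favours by construction. Over all 20962 genes 49.2% had like signs. The unadjusted p was under 0.05 for 1926 genes. Among shared genes that were higher in KO cells the median effect was 0.58 (range 0.29 to 4.51), and among those that were lower it was -0.50 (-1.39 to -0.30). Only 15 genes differed at least 2-fold, 11 of them higher and 4 lower. Most shared differences were therefore under 2-fold.

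Every KO array lay on the same side of every WT array of its state, in both states, for 103 of the 110 genes (73 higher and 30 lower), whereas 1.5% of all genes were apart in this way, 315 of 20962. The groups overlapped in at least 1 state for Gstp3, Cd48, Gramd3, Lyz1, Slco3a1, Rab4a and Prkca, which are listed because they were the exceptions and not by the naming rule. Taken state by state, 30 of the 110 passed in both states, 25 in activated cells only, 29 in naive cells only and 26 in neither. Those 30 are all the genes that passed in both states with like sign, 0.143% of all genes. The same arrays selected the 110, so this share and the share apart in both states are a description and no independent support. In all, 277 genes passed in activated cells (1.32%) and 228 in naive cells (1.09%). The median effect of the genes higher in KO cells was 0.54 in activated and 0.61 in naive cells, and that of the lower genes was -0.50 in activated and -0.54 in naive cells.

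**Figure D1:**
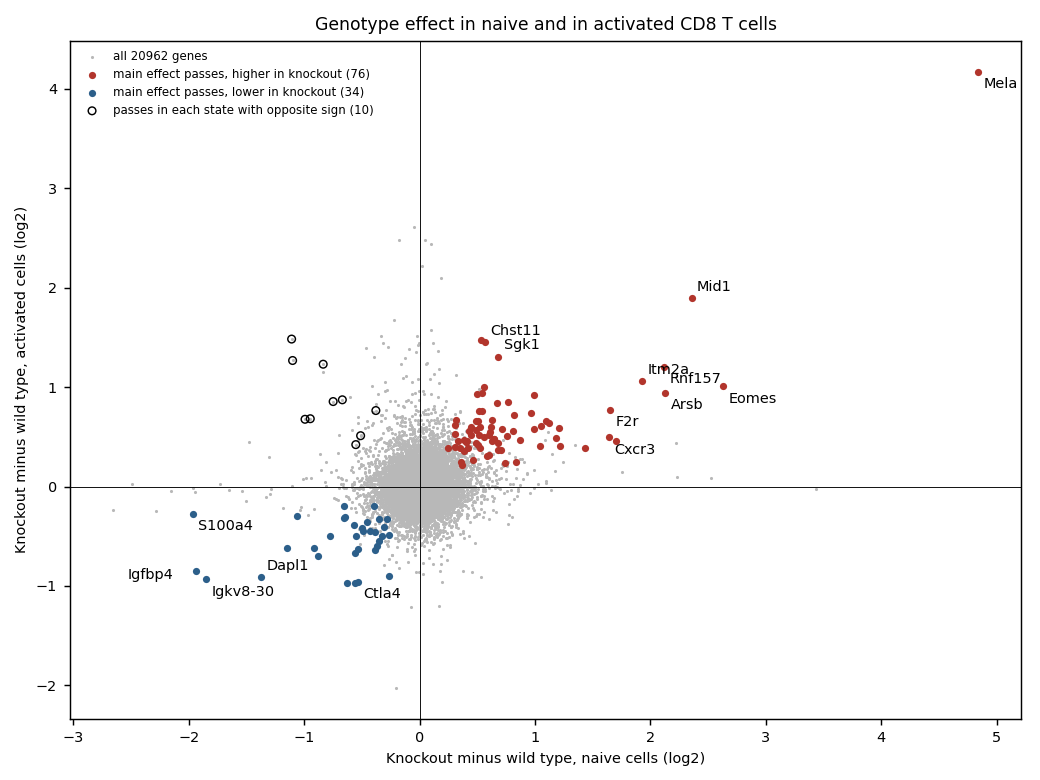
KO minus WT difference (log2) of each gene in naive cells (x axis) and in activated cells (y axis). The 76 shared genes higher in KO cells (red) lie at the upper right with Mela farthest out, the 34 lower genes (blue) lie in the lower left, and open circles mark the 10 genes that passed in each state with opposite sign.

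The promoters of 3 genes with large rises and of the gene with the smallest adjusted p among the falls are shown first, because they differ widely in the density of CG dinucleotides, the sequence feature of promoters at which PRC2 is known to gather. Each window runs from 250 bases before to 50 bases after the transcript start in RefSeq (GRCm38.p6), 5′ to 3′ on the strand of the gene, with CG in capitals. Eomes lies at chr9:118477939-118478238 (plus strand), Rnf157 at chr11:116412983-116413282 (minus strand), Itm2a at chrX:107403311-107403610 (minus strand) and Dapl1 at chr2:59484403-59484702 (plus strand).
Eomes: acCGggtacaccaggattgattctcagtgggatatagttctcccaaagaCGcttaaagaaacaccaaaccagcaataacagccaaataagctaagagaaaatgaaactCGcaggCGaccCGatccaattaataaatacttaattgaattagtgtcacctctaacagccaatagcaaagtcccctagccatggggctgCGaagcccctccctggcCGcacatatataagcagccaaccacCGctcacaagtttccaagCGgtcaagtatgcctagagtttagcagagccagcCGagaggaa
Rnf157: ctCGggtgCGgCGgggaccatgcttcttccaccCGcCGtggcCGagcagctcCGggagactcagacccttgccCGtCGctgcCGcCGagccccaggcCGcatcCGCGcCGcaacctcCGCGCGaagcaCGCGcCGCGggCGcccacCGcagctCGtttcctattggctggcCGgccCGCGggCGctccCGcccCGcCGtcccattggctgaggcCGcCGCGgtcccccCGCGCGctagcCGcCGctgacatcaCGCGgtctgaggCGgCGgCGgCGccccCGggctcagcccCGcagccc
Itm2a: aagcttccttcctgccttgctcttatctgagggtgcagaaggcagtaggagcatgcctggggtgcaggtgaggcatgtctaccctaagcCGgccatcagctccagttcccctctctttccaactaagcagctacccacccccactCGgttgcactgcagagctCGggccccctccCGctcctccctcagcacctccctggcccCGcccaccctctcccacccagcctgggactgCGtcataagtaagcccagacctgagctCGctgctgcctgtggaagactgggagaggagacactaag
Dapl1: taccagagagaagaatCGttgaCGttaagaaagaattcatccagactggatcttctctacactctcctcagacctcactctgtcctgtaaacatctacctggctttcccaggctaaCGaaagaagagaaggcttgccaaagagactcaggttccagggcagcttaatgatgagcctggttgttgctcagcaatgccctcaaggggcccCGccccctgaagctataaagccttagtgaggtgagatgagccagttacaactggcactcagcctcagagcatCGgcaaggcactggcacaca

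The Rnf157 window held 48 CG dinucleotides, against 10 in Eomes, 7 in Itm2a and 5 in Dapl1, so both CG-rich and CG-poor promoters stood among the largest changes. RefSeq windows were matched for 62 of the 76 higher genes, and the ratio of observed to expected CG exceeded 0.6 in 77.4% of them, against 56.2% of the 14476 genes with a window and 79.0% of the genes with a window and a mean WT level above 2. Of the 34 lower genes 27 had a window, and 14 of these (51.9%) exceeded that ratio. The match of 79.4% is below the share set for such a check, which is therefore void. Of all genes only 69.1% had a window, also below that share, and of genes with a mean WT level above 2, 79.8% had one. The shares of higher genes and the motif counts are therefore a description only. Motifs were searched on both strands and counted by gene, since some genes have several windows. The T-box motif GGTGTGA was found for 3 of 62 higher genes (4.84%) and 4.41% of all genes with a window. The Runx motif TGTGGTT was found for 4 of 62 (6.45%) and 5.04%.

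The largest rise was that of Mela, a melanoma antigen gene that stems from an endogenous retrovirus. Mela read 5.59, 5.34 and 5.34 on the activated KO arrays, against 1.18, 1.11 and 1.45 on the activated WT arrays. It read 6.62, 5.76 and 5.62 on the naive KO arrays, against 1.13, 1.22 and 1.14 on the naive WT arrays. Every WT array was close to the bottom of the scale and every KO array far above it, in both states. The effect was 4.51 ± 0.16, adjusted p = 5.79e-10, with 4.17 in activated and 4.84 in naive cells. No fold is given, because differences are compressed at the WT level. All 3 probe sets of Mela passed in the same direction, and the one used carries a note on cross-hybridization, so related retroviral transcripts cannot be told apart from it.

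Transcription factors of T cells and blood cells were among the genes that rose. Eomes encodes a T-box factor of natural killer cells and of CD8 cells that respond to antigen or remember it. It read 3.73, 3.86 and 4.01 on the activated KO arrays, against 2.81, 2.76 and 3.02 on the activated WT arrays. In naive cells it read 4.19, 5.10 and 4.93 on the naive KO arrays, against 1.98, 2.17 and 2.18 on the naive WT arrays. KO cells were higher in both states, by more in naive than in activated cells. The effect was 1.82 ± 0.24, adjusted p = 0.00261, or 3.53-fold, and both of its probe sets passed. Effects were 1.01 in activated and 2.63 in naive cells, and their difference passed on its own test (-1.62 ± 0.25, adjusted p = 0.00381).

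Runx2, a Runt-domain factor best known from bone and also used by T cells, had like effects in both states. It read 2.95, 3.14 and 3.44 on the activated KO arrays, against 2.56, 2.49 and 2.33 on the activated WT arrays. It read 2.66, 2.69 and 2.71 on the naive KO arrays, against 1.81, 1.56 and 2.23 on the naive WT arrays. The genotypes were apart in both states, and the effect was 0.77 ± 0.10, adjusted p = 0.00261. Myb, a factor of blood progenitors that is also expressed in T cells, rose by 1.08 ± 0.18, adjusted p = 0.0121, with all 3 probe sets passing. Myb read 4.07, 4.44 and 4.37 on the activated KO arrays, against 4.00, 3.53 and 3.99 on the activated WT arrays. It read 4.72, 4.76 and 4.70 on the naive KO arrays, against 3.12, 3.02 and 2.94 on the naive WT arrays. The activated groups were separated by a narrow gap and the naive groups by a wide one. The call of Myb ended without mouse 2 or mouse 5 (adjusted p up to 0.0992). Nr4a2, an orphan nuclear receptor induced by T-cell receptor signals, rose by 0.54 ± 0.08, adjusted p = 0.00291, with 0.46 in activated and 0.63 in naive cells. Mef2a, a MADS-box factor, rose by 0.91 ± 0.16, adjusted p = 0.0169, and its call ended without mouse 1, 2, 3, 5 or 6 and without naive KO array 5 or naive WT array 1 or 3 (adjusted p up to 0.063 without 1 array and 0.0927 without 1 mouse).

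Of 28 chemokine, homing and egress receptors, 3 rose, Cxcr3 and Cxcr4 among them, and 25 did not pass (median effect -0.02), so 10.7% passed, against 0.525% of all genes. Cxcr3 encodes the receptor for interferon-induced chemokines on effector and memory CD8 cells. It read 3.22, 3.52 and 3.54 on the activated KO arrays, against 2.89, 2.75 and 3.16 on the activated WT arrays. It read 5.22, 5.19 and 5.24 on the naive KO arrays, against 3.62, 3.54 and 3.54 on the naive WT arrays. All KO arrays exceeded all WT arrays of the same state. The effect was 1.07 ± 0.17, adjusted p = 0.00645, and without mouse 2 the adjusted p was 0.0506. Cxcr4 encodes the receptor that holds cells in bone marrow and lymphoid tissue. It read 4.25, 4.70 and 4.20 on the activated KO arrays, against 3.51, 3.31 and 3.54 on the activated WT arrays. It read 6.37, 6.52 and 6.63 on the naive KO arrays, against 6.03, 6.09 and 5.92 on the naive WT arrays. Its effect was 0.71 ± 0.10, adjusted p = 0.00363, with 0.93 in activated and 0.49 in naive cells. Xcl1 encodes a chemokine that attracts cross-presenting dendritic cells, and it rose by 0.81 ± 0.15, adjusted p = 0.0169. Its call ended without naive WT array 1 and without mouse 1, 2, 3 or 5 (adjusted p up to 0.0581 without an array and 0.103 without a mouse).

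Several other surface proteins rose. Itm2a encodes a membrane protein of developing and activated T cells. It read 5.26, 5.41 and 5.58 on the activated KO arrays, against 4.49, 4.36 and 4.21 on the activated WT arrays. It read 4.58, 5.31 and 5.43 on the naive KO arrays, against 3.23, 3.36 and 2.93 on the naive WT arrays. KO cells were above WT cells in each state, and the naive array of mouse 4 was the lowest of the KO arrays. The effect was 1.50 ± 0.17, adjusted p = 0.000746, a 2.82-fold difference, and both probe sets passed. F2r encodes the thrombin receptor. F2r read 3.02, 3.63 and 3.96 on the activated KO arrays, against 2.78, 2.66 and 2.85 on the activated WT arrays. It read 4.12, 4.90 and 4.67 on the naive KO arrays, against 2.71, 3.15 and 2.86 on the naive WT arrays. Both of its probe sets passed, and the effect was 1.21 ± 0.19, adjusted p = 0.00599. Cd44, the hyaluronan receptor that marks antigen-experienced T cells, read 5.99, 5.82 and 5.72 on the activated KO arrays, against 4.97, 4.83 and 4.90 on the activated WT arrays. It read 2.69, 3.36 and 2.62 on the naive KO arrays, against 2.34, 2.48 and 2.23 on the naive WT arrays. The genotypes were apart in both states. Its effect was 0.74 ± 0.12, adjusted p = 0.00757, with 3 of 4 probe sets passing, and its call ended without mouse 1, 3 or 5 (adjusted p up to 0.0763). Crtam, an adhesion molecule of activated CD8 cells that was picked after its values were seen, had nearly the same effect in both states, with 0.60 in activated and 0.62 in naive cells (0.61 ± 0.08, adjusted p = 0.00256).

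**Figure D2:**
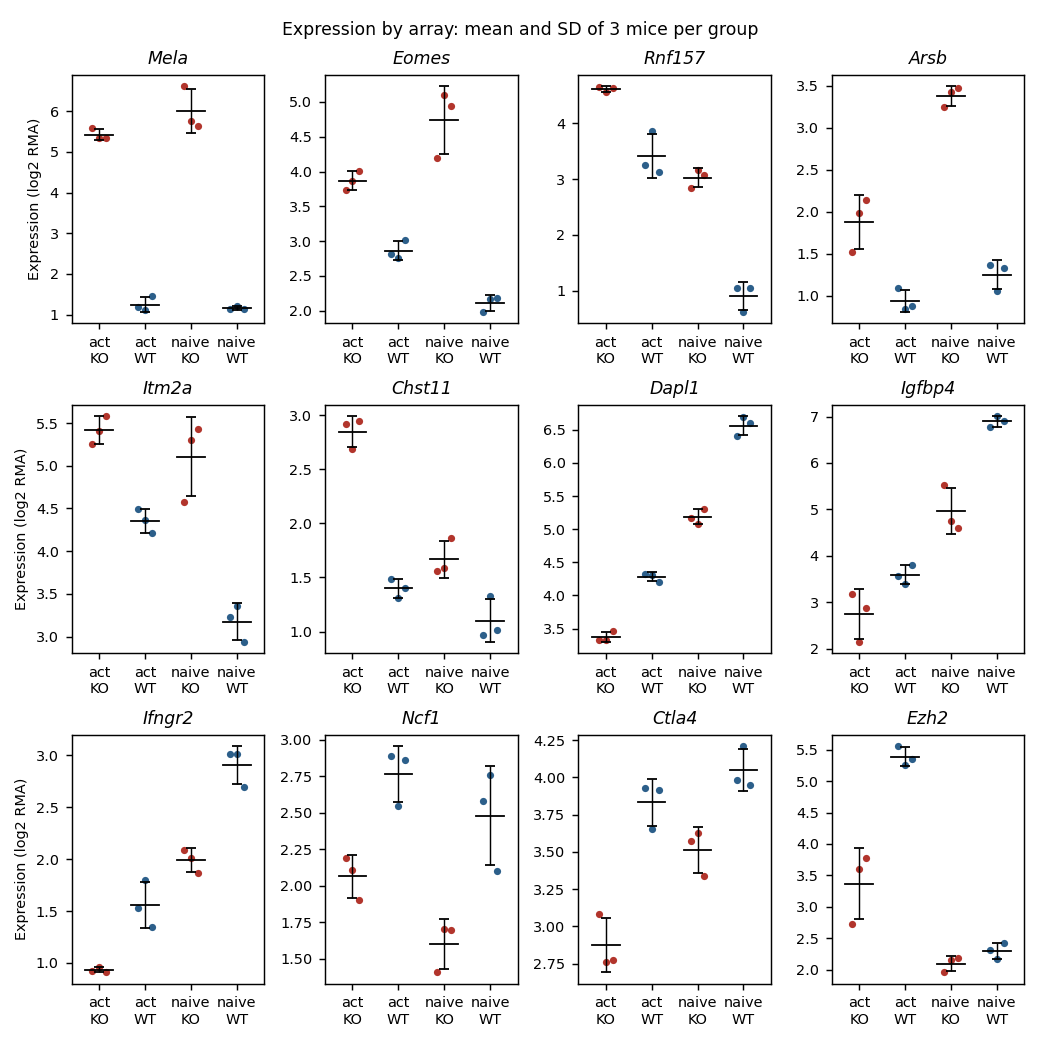
Log2 expression on each array (y axis) of 12 genes in activated KO, activated WT, naive KO and naive WT cells, with the mean and SD of 3 mice per group. The genotypes are apart in both states for every gene shown except Ezh2, whose naive groups overlap.

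Ubiquitin ligases, sulfate and sugar enzymes, and signalling proteins were among the other large rises. Rnf157 encodes a RING-type ubiquitin ligase. It read 4.66, 4.56 and 4.64 on the activated KO arrays, against 3.26, 3.86 and 3.13 on the activated WT arrays. It read 2.85, 3.17 and 3.08 on the naive KO arrays, against 1.06, 0.62 and 1.05 on the naive WT arrays. KO cells were higher in both states, although WT cells themselves differed widely between states. The effect was 1.66 ± 0.17, adjusted p = 0.000231, and it was carried by 1 of 4 probe sets. Mid1, a microtubule-bound ubiquitin ligase, rose by 2.13 ± 0.21, adjusted p = 0.000231, but its probe set is marked by the authors as matching the antisense strand, so transcripts of either strand cannot be told apart. Arsb encodes arylsulfatase B, a lysosomal enzyme that removes sulfate from chondroitin and dermatan sulfate. It read 1.52, 1.99 and 2.14 on the activated KO arrays, against 1.09, 0.85 and 0.88 on the activated WT arrays. It read 3.25, 3.43 and 3.47 on the naive KO arrays, against 1.37, 1.05 and 1.33 on the naive WT arrays. The gap was narrower in activated than in naive cells. The activated WT arrays of Arsb lay close to the array medians, where differences are compressed. Both probe sets passed, the effect was 1.54 ± 0.18, adjusted p = 0.000893, and the difference between states passed (-1.18 ± 0.20, adjusted p = 0.00751).

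Chst11 encodes a sulfotransferase that adds sulfate to chondroitin. It read 2.92, 2.68 and 2.94 on the activated KO arrays, against 1.48, 1.31 and 1.41 on the activated WT arrays. It read 1.56, 1.59 and 1.87 on the naive KO arrays, against 0.96, 1.33 and 1.01 on the naive WT arrays. Here the gap was wider in activated cells. The naive WT arrays of Chst11 lay close to the array medians, where differences are compressed. The effect was 1.01 ± 0.14, adjusted p = 0.00294, and the difference between states passed in that direction (0.88 ± 0.16, adjusted p = 0.0177). St3gal6, which adds sialic acid to galactose, rose by 0.90 ± 0.13, adjusted p = 0.00363, with 0.59 in activated and 1.21 in naive cells. Sgk1 encodes a kinase downstream of phosphoinositide 3-kinase. It read 2.69, 2.83 and 2.90 on the activated KO arrays, against 1.74, 1.38 and 1.39 on the activated WT arrays. It read 5.39, 5.60 and 5.37 on the naive KO arrays, against 4.93, 4.76 and 4.63 on the naive WT arrays. Its genotypes were apart in both states, and the effect was 0.99 ± 0.11, adjusted p = 0.000746. Arap2, a GTPase-activating protein for ARF proteins, rose by 0.88 ± 0.10, adjusted p = 0.000746. Ttc7b, a scaffold of a phosphatidylinositol kinase complex, rose by 0.95 ± 0.14, adjusted p = 0.00439, with almost equal effects in both states (0.92 in activated and 0.99 in naive cells). Ctnna1, which encodes alpha-catenin, rose by 1.00 ± 0.17, adjusted p = 0.0121, on 1 of its 4 probe sets, of which only 2 had a positive effect, and its call ended without mouse 1, 2, 3 or 5 (adjusted p up to 0.0908).

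Genes known from resting T cells were among the largest falls of the 34 genes that were lower in KO cells. Dapl1 encodes a death-associated protein-like factor that is abundant in naive and memory T cells. It read 3.32, 3.33 and 3.46 on the activated KO arrays, against 4.33, 4.31 and 4.20 on the activated WT arrays. It read 5.17, 5.08 and 5.30 on the naive KO arrays, against 6.40, 6.69 and 6.60 on the naive WT arrays. The groups were tight and well apart in both states. The effect was -1.14 ± 0.09, adjusted p = 1.95e-05, a 2.21-fold lower level in KO cells, with -0.91 in activated and -1.38 in naive cells. Igfbp4 encodes a secreted binding protein of insulin-like growth factors. It read 3.19, 2.14 and 2.89 on the activated KO arrays, against 3.56, 3.40 and 3.81 on the activated WT arrays. It read 5.52, 4.75 and 4.61 on the naive KO arrays, against 6.78, 7.01 and 6.89 on the naive WT arrays. KO arrays varied more than WT arrays, but none reached a WT array of its state. The effect was -1.39 ± 0.22, adjusted p = 0.00689, and its call ended without mouse 3 or 5 (adjusted p up to 0.0701).

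S100a4, which encodes a calcium-binding protein of memory cells, shared its sign but not its size between states. It read 2.14, 2.03 and 2.00 on the activated KO arrays, against 2.26, 2.43 and 2.31 on the activated WT arrays. It read 0.82, 1.01 and 1.01 on the naive KO arrays, against 2.86, 2.92 and 2.95 on the naive WT arrays. The fall was large in naive cells and slight in activated cells. Its naive KO arrays lay close to the array medians, where differences are compressed. The effect over both states was -1.12 ± 0.23, adjusted p = 0.0401, the difference between states was 1.69 ± 0.12, adjusted p = 6.83e-06, and the call ended without any 1 of the 6 naive arrays (adjusted p up to 0.111) or without mouse 1, 2, 3, 5 or 6 (up to 0.139).

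Among genes of receptors, Ifngr2, Ctla4 and Tnfrsf18 fell. Ifngr2 encodes the signalling chain of the interferon-gamma receptor. It read 0.92, 0.96 and 0.92 on the activated KO arrays, against 1.53, 1.80 and 1.35 on the activated WT arrays. It read 2.09, 2.01 and 1.86 on the naive KO arrays, against 3.01, 3.01 and 2.69 on the naive WT arrays. KO cells were below WT cells on every array of each state. The activated KO arrays of Ifngr2 lay close to the array medians, where differences are compressed. The effect was -0.77 ± 0.09, adjusted p = 0.000746, with -0.62 in activated and -0.92 in naive cells, and 1 of its 2 probe sets passed. Ctla4 encodes an inhibitory receptor that competes for costimulatory ligands. It read 3.08, 2.76 and 2.78 on the activated KO arrays, against 3.93, 3.65 and 3.92 on the activated WT arrays. It read 3.57, 3.63 and 3.34 on the naive KO arrays, against 3.98, 4.21 and 3.95 on the naive WT arrays. The groups did not overlap in either state, and the effect was -0.75 ± 0.10, adjusted p = 0.00256. Tnfrsf18, a receptor gene of activated and regulatory T cells, fell by 0.45 ± 0.09 on the log2 scale, and its call ended without 8 of the 12 arrays (activated KO array 5, activated WT arrays 1, 2 and 3, naive KO array 4 and naive WT arrays 1, 2 and 3; adjusted p up to 0.0905) and without mouse 1, 2, 3, 4 or 5 (up to 0.184). Ctla4 and Tnfrsf18 are also the 2 passing members of 11 CD4 and regulatory T-cell markers (18.2%, against 0.525% of all genes). The mean log2 level of that list was 2.40 to 2.58 in activated KO and 2.63 to 2.71 in activated WT cells, and 1.56 to 1.65 in naive KO and 1.65 to 1.70 in naive WT cells, lower in KO cells without overlap in both states, and its part in these falls was not tested. Of the 11 members, 5 were lower and 2 higher in KO cells in both states. Cd4 read 1.29 to 2.14 and Foxp3, the defining factor of regulatory T cells, 1.37 to 1.94. These ranges cover all 12 arrays and do not compare the genotypes.

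Ncf1, Samhd1, Cebpb, Nfix and Lyz1 fell as well. Ncf1 encodes a subunit of the NADPH oxidase. It read 2.19, 2.11 and 1.90 on the activated KO arrays, against 2.89, 2.55 and 2.86 on the activated WT arrays. It read 1.41, 1.70 and 1.70 on the naive KO arrays, against 2.58, 2.76 and 2.10 on the naive WT arrays. Its groups were apart in both states, 2 of 3 probe sets passed, and the effect was -0.79 ± 0.11, adjusted p = 0.00291. Samhd1, which breaks down deoxynucleotides, fell with an effect of -0.58 ± 0.09, adjusted p = 0.00437, and without mouse 1 its adjusted p was 0.0532. Cebpb, a factor of myeloid and inflammatory gene expression, had an effect of -0.53 ± 0.10, adjusted p = 0.0179. Its call ended without activated KO array 5, activated WT array 1, naive KO array 6 or naive WT array 1 (adjusted p up to 0.0675) and without mouse 1, 2, 5 or 6 (up to 0.16). Nfix, a nuclear factor of blood and brain progenitors, had an effect of -0.51 ± 0.09, adjusted p = 0.014, and its call ended without mouse 1, 2 or 5 (adjusted p up to 0.112). Lyz1, a lysozyme gene of myeloid cells, had an effect of -0.68 ± 0.13, adjusted p = 0.0261. Its call ended without activated KO array 6 or any 1 naive array (adjusted p up to 0.0783) and without mouse 1, 2, 3, 5 or 6 (up to 0.127). It was the 1 passing member of 23 monocyte, macrophage and neutrophil markers (4.35%, against 0.525% of all genes). The mean log2 level of that list was 1.10 to 1.23 in activated KO and 1.12 to 1.15 in activated WT cells, and 1.29 to 1.43 in naive KO and 1.70 to 1.81 in naive WT cells. In bulk samples fewer cells of a type and less RNA per cell cannot be told apart, and the part of other cells in these effects was not tested.

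Several further genes completed the 15 largest falls. Ppic, a cyclophilin gene, had an effect of -0.88 ± 0.13, adjusted p = 0.00439, and without mouse 1 its adjusted p was 0.0522. Slc35g1, a solute carrier gene, had an effect of -0.80 ± 0.11, adjusted p = 0.00291, and Cep85, a centrosome gene read by a probe set marked as antisense, had -0.61 ± 0.09, adjusted p = 0.00437. Cdk5rap1, which modifies mitochondrial transfer RNA, had an effect of -0.64 ± 0.10, and its call ended without mouse 1 or 5 (adjusted p up to 0.0852). Pstpip1, an adaptor of the cytoskeleton, was at -0.48 ± 0.08, and its call ended without mouse 1 or 6 (adjusted p up to 0.106).

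The remaining 68 shared genes, which the naming rule does not cover, had effects from 0.29 to 0.87 (52 genes higher in KO cells) and from -0.76 to -0.30 (16 genes lower). A few were picked after their values were seen, for their known part in T cells. Bcl2l11 encodes Bim, which promotes the death of T cells at the end of a response. It read 5.10, 5.21 and 4.93 on the activated KO arrays, against 4.05, 4.41 and 4.26 on the activated WT arrays. It read 5.25, 5.06 and 4.40 on the naive KO arrays, against 4.27, 4.39 and 4.02 on the naive WT arrays. The groups were apart in both states, and the effect was 0.76 ± 0.12, adjusted p = 0.0094, lost without mouse 1, 3 or 5 (adjusted p up to 0.0925). Pik3r5 encodes a regulatory subunit of phosphoinositide 3-kinase gamma. It read 3.24, 3.27 and 3.40 on the activated KO arrays, against 2.83, 2.64 and 2.90 on the activated WT arrays. It read 4.01, 3.80 and 3.79 on the naive KO arrays, against 3.31, 3.36 and 3.38 on the naive WT arrays. The effects in both states were almost equal, with 0.52 in activated and 0.52 in naive cells (0.52 ± 0.06, adjusted p = 0.00126). Thy1 encodes the surface glycoprotein Thy-1 of mouse T cells. It read 6.99, 7.00 and 6.75 on the activated KO arrays, against 7.34, 7.37 and 7.37 on the activated WT arrays. It read 6.66, 6.79 and 6.68 on the naive KO arrays, against 7.13, 7.26 and 7.03 on the naive WT arrays. It was high on every array and slightly lower in KO cells in both states (-0.44 ± 0.06, adjusted p = 0.00329).

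Some probe sets of immunoglobulin transcripts, which CD8 cells do not make in quantity, were lower in KO cells. Igkv8-30 is a variable segment of the kappa light chain. It read 1.22, 1.14 and 0.82 on the activated KO arrays, against 2.01, 1.96 and 2.00 on the activated WT arrays. It read 3.54, 3.63 and 3.77 on the naive KO arrays, against 5.54, 5.49 and 5.47 on the naive WT arrays. It was lower in KO than in WT cells in both states and lower in activated than in naive cells in both genotypes. Its activated KO arrays lay close to the array medians, where differences are compressed. The effect was -1.39 ± 0.14, adjusted p = 0.000231. Ighm, the constant gene of IgM, had an effect of -0.47 ± 0.07, adjusted p = 0.00362, with -0.44 in activated and -0.49 in naive cells, on 1 of its 10 probe sets. A further 3 probe sets shared by several kappa genes passed, with effects from -1.85 to -1.74. Their mean level was 0.86 to 0.99 in activated KO and 2.11 to 2.45 in activated WT cells, and 5.34 to 5.46 in naive KO and 7.58 to 7.60 in naive WT cells.

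Of 9 plasma-cell markers, Ighm was the 1 to pass (11.1%, against 0.525% of all genes). The list had mean levels of 2.16 to 2.36 in activated KO and 2.39 to 2.46 in activated WT cells, and 1.92 to 1.95 in naive KO and 2.32 to 2.36 in naive WT cells. None of the 20 B-cell markers passed by limma over both states, and 8 of them (40.0%) had an unadjusted p under 0.05, against 9.19% of all genes. Of the 20, 11 were lower in KO cells in both states, and 3 passed as lower with 1 mean per group. Their mean level was 1.06 to 1.12 in activated KO and 1.08 to 1.12 in activated WT cells, but 1.67 to 1.87 in naive KO and 2.23 to 2.26 in naive WT cells. B-cell markers thus differed between genotypes in the naive arrays, and kappa levels and the mean of the plasma-cell list in both states. The plasma-cell list includes Irf4 and Prdm1, which are also on the list of effector and memory transcription factors. Its mean therefore does not mark plasma cells alone. The part of these markers in the shared effects was not tested.

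**Figure D3:**
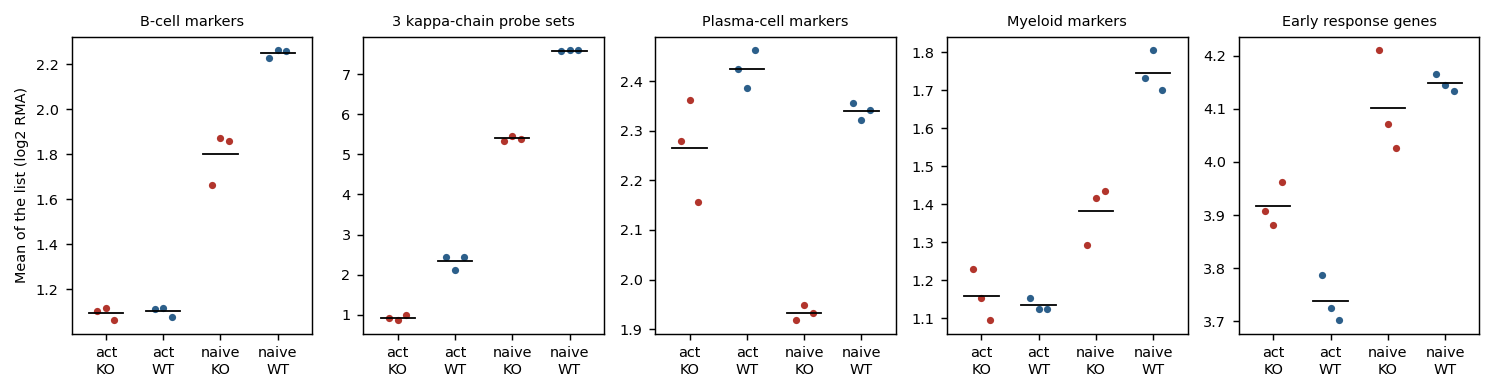
Mean log2 level (y axis) of the B-cell, plasma-cell and myeloid marker lists, of 3 kappa-chain probe sets and of early response genes on each array, by group, with a line at the group mean. B-cell and myeloid markers lie lower in KO than in WT cells in the naive arrays and overlap in the activated arrays, whereas the kappa probe sets are lower in KO cells in both states.

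The size of the effect differed between states for some shared genes. It was larger in naive cells for 67 of the 110. The difference between states passed for 182 of all genes (0.868%) and for 10 of the 110, with the larger effect in naive cells for 9 and in activated cells for 1, Chst11. The others were Myb, S100a4, Mef2a, Arsb, Eomes, Lyz1, Pde2a, Cxcr3 and Igkv8-30. Some of these read close to the array medians in a group, such as Igkv8-30 in activated KO cells, where differences are compressed. S100a4, Mef2a, Lyz1 and Myb did not pass in activated cells alone. Conversely, 10 genes passed in each state with opposite sign and have no shared effect, such as the chemokine gene Ccl5 (0.68 in activated and -0.99 in naive cells), the galectin gene Lgals3 (1.23 in activated and -0.84 in naive cells) and Cd24a (1.27 in activated and -1.10 in naive cells), which encodes a small surface glycoprotein. Several of the largest single-state effects did not pass either. Klra8, an Ly49 receptor gene, had effects of -0.02 in activated and 3.43 in naive cells, and Perp, a p53 target, had 2.61 in activated and -0.05 in naive cells. For Itgae, the integrin chain of tissue-resident cells, they were -0.23 in activated and -2.66 in naive cells.

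**Figure D4:**
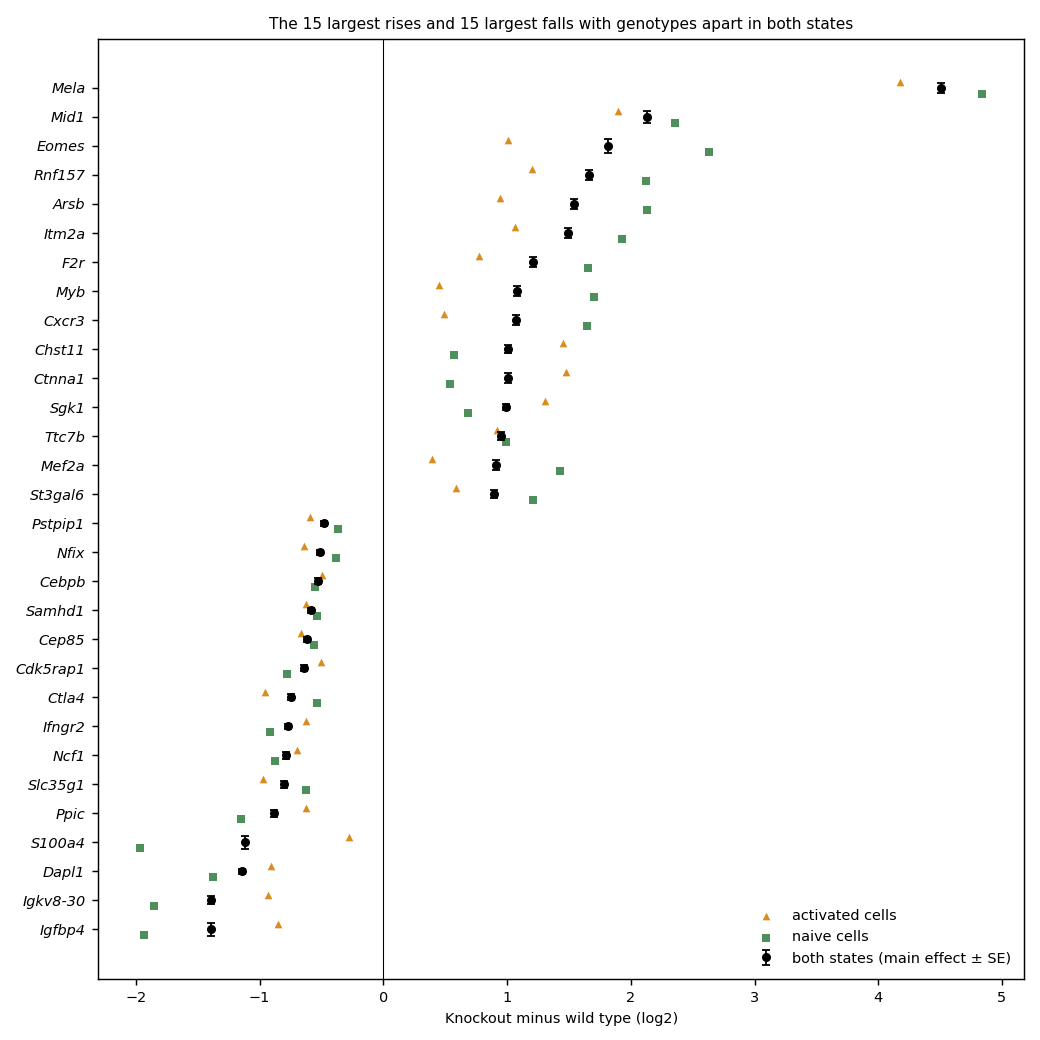
KO minus WT difference (log2, x axis) of the 15 largest rises and 15 largest falls among shared genes whose genotypes were apart in both states, with activated cells as triangles, naive cells as squares, and the effect over both states ± SE in black. Squares lie farther from 0 than triangles for most rises, and the reverse holds, among others, for Chst11, Ctnna1, Sgk1 and Ctla4.

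The 33 lists name 714 genes, of which 678 were measured, and 17 of these 678 were shared genes (2.51%, against 0.525% of all genes). The lists were drawn up with earlier results known, so these shares are a description. No member passed by limma in 19 lists, among them 14 PRC2 genes, 21 PRC1 genes, 31 histone and DNA modifying enzymes, 71 developmental regulators bound by Polycomb, 18 cytotoxic granule genes, 30 mitosis genes and 35 DNA replication genes. At an unadjusted p under 0.05 there were 1926 genes in all. Of PRC2 genes other than Ezh2, effects were 0.14 ± 0.06 for Suz12, 0.18 ± 0.12 for Eed and -0.12 ± 0.10 for Ezh1, the paralog of Ezh2, and none passed. The cell-cycle inhibitor gene Cdkn2a, a Polycomb target in many cells, was at -0.01 ± 0.06. Cdkn2a read only 0.73 to 1.05 over all arrays, close to the array medians, where differences are compressed. Its small effect therefore does not show that its expression was unchanged. The T-box factor gene Tbx21 was at -0.16 ± 0.07. Of 22 genes reported as Ezh2 targets in T cells, Eomes and Runx2 rose and 20 did not pass (9.09% passing), with a list median of 0.04, against -0.000907 over all genes.

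Lists of T-cell states had from 1 to 4 passing members, and the share that passed is given for each, against 0.525% of all genes. Of 29 effector and memory-phenotype genes, 3 rose, Cd44 and Cxcr3 among them, S100a4 fell and 25 did not pass (13.8% passing, median 0.08). Of 24 genes of resting T cells, Igfbp4 and Dapl1 fell and 22 did not pass (8.33%, median 0.02). Of 19 natural killer and innate-like genes, Eomes and Xcl1 rose and 17 did not pass (10.5%, median 0.02). Eomes was the 1 of 23 effector and memory transcription factors to pass (4.35%), and Xcl1 the 1 of 29 cytokine and chemokine genes (3.45%). Of 10 inhibitory receptors, Ctla4 fell and 9 did not pass (10.0%, median -0.06). The activin and TGF-beta list had Skil, a repressor of that pathway, as its 1 rise among 20 (5.0% passing, effect 0.46 ± 0.09), and its call ended without 10 of the 12 arrays, all but activated KO arrays 4 and 5 (adjusted p up to 0.111), and without mouse 1, 2, 3, 5 or 6 (up to 0.172). Nr4a2 was the 1 of 24 early response and handling genes to pass (4.17%). Their mean level was 3.88 to 3.96 in activated KO and 3.70 to 3.79 in activated WT cells, and 4.03 to 4.21 in naive KO and 4.13 to 4.16 in naive WT cells, and their part in the result for Nr4a2 was not tested. Of 32 interferon-stimulated genes 1 rose (3.13%), the RNA sensor gene Ifih1 (effect 0.53 ± 0.10). Its call ended without 8 of the 12 arrays (activated KO arrays 4 and 5, activated WT arrays 2 and 3, naive KO array 4 and naive WT arrays 1, 2 and 3; adjusted p up to 0.0888) and without mouse 1, 2, 3, 4 or 5 (up to 0.173). The median of that list was -0.05 in activated and 0.57 in naive cells.

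More members passed in several lists with 1 mean per group, where 1.43% of all genes passed on the effect averaged over states, whatever its sign in each state. There, 8 cytokine and chemokine genes were higher and 1 lower, 7 interferon-stimulated genes and 3 cytotoxic granule genes were higher, and 4 chemokine, homing and egress receptors were higher and 2 lower. Of effector and memory-phenotype genes 3 were higher and 3 lower, of reported Ezh2 targets 4 were higher, and of monocyte, macrophage and neutrophil markers 4 were lower.

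**Figure D5:**
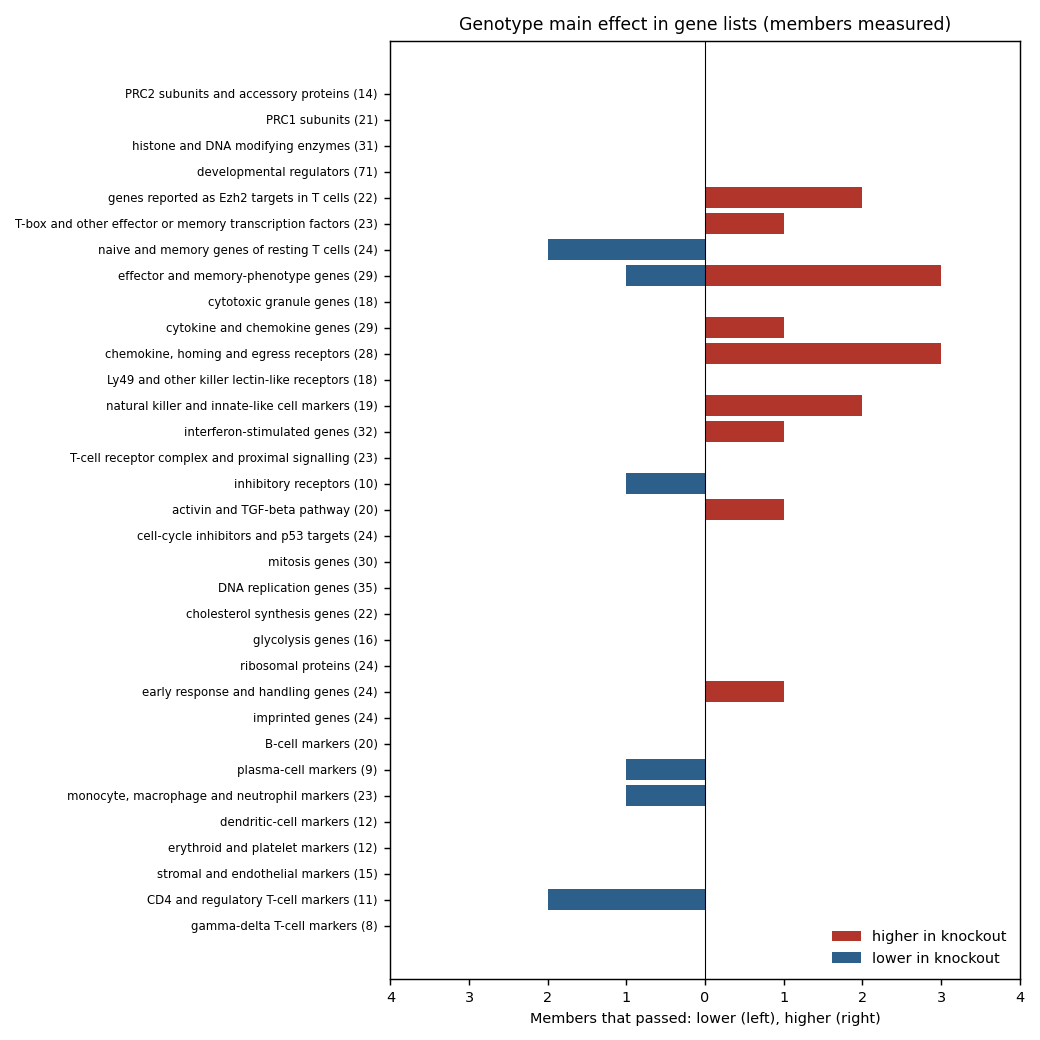
Number of members of each gene list (y axis, members measured in brackets) whose effect over both states passed, with those higher in KO cells to the right of 0 and those lower to the left. No list has more than 4 passing members, and most have 0.

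The shared genes were scattered in the genome. Of 108 with a chromosome, at most 11 lay on any 1 of 20 chromosomes, and no pair of shared genes adjoined in the order of measured genes. Igkv8-30 was the 1 shared gene on chromosome 6, which carries Ezh2, and none lay among the 100 measured genes on either side of Ezh2. Shared genes were brighter than most, with a median WT level of 2.67 for those higher in KO cells and 3.56 for those lower, against 1.08 for all genes. Of 79 shared genes with more than 1 probe set, 27 had another probe set that passed in the same direction and 58 had all probe sets of the same sign. Of the genes described above, at least 1 probe set had the opposite sign for Ctnna1, St3gal6, Nr4a2, Ighm, Nfix and Lyz1. Tested one by one, 160 of 38544 probe sets with 1 gene symbol passed (0.415%), as did 23 of 6493 probe sets with several symbols or none (0.354%). A note on cross-hybridization applied to 53 of the 110 (48.2%), against 46.5% of all genes, and 5 were read by probe sets marked as antisense (Psme4, Cep85, Ints5, Mid1 and Pabpc4, listed for that mark).

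All 110 genes kept the sign of their effect over both states in every setting in which they were tested. The settings reuse the arrays that selected these genes, so this is no independent support. On mice 3 and 6 alone, 109 of the 110 had like signs in both states. The counts moved more, since 1 effect for both states leaves state-dependent responses in the residual: with 1 mean per group 178 genes were higher and 85 lower (1.25% of all genes), with all 110 called again. Without naive WT array 1 the counts were 49 higher and 19 lower, and 22 were lower without activated WT array 1 and 22 without naive WT array 2. Without mouse 1, 2, 3 or 5 there were 42, 41, 41 or 37 higher and 10, 20, 18 or 16 lower genes. Without mouse 4 there were 124 higher and 38 lower. The calls of 65 genes held without any 1 array and those of 35 genes (26 higher and 9 lower) without any 1 mouse.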

How the data were processed

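Expression was measured on 12 arrays, 3 per group. The log2 values were used as deposited: per the file headers, the authors made them with RMA on perfect-match probes only, with no RMA version stated. Their workbook held the same values (differences of at most 5e-09). It also gives the authors' p-value for genotype from a 2-way analysis of variance, unadjusted, and their ratio of KO over WT, and these deposited values were used only for the authors' rule. Of 45141 probe sets, 104 controls were left out, and 38544 had 1 gene symbol, 860 several and 5633 none. Each of 20962 genes was represented by its probe set with the highest mean. Gene identifiers matched RefSeq (GRCm38.p6) for 18394 genes, and 2568 kept the deposited symbol. The lowest correlation between arrays of a group was 0.983.

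Genotype effects were fitted with limma 3.58.1 in R 4.3.3 (lmFit and eBayes, two-sided, Benjamini-Hochberg over all genes, adjusted p under 0.05) with genotype and state as additive terms. A second fit with 1 mean per group gave the effect in each state and its difference between states. Data were simulated with independent noise of the spread within groups, the same change in both states and no mouse effect. On these data the additive fit recovered 85% of genes changed by 0.5 on the log2 scale and 100% of those changed by 1. False calls made up 4.15% of its calls. Changes that differ between states were not simulated, so these shares do not cover such genes. Signs, group ranges and promoters were tabulated in Python 3.11.15 with pandas 2.3.3 and numpy 2.4.6, and figures drawn with matplotlib 3.10.9.

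The labels give each mouse 1 activated and 1 naive array, so arrays are paired by animal. Deviations from the group means correlated across genes by 0.04, -0.10, 0.05, 0.13, -0.05 and 0.07 for mice 1 to 6, and genes are not independent replicates. Alternatives were the mouse as a block, 1 mean per mouse, other scalings, variance models and probe-set choices, leaving out each array or mouse, and the authors' rule (p under 0.01, ratio over 1.3). The file headers number the samples 1 to 8 (mice 1, 2, 4 and 5) and 9 to 12 (mice 3 and 6), and a term for this split was added after seeing the data. What the numbers stand for is not stated.

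The genes named are a panel of T-cell and Polycomb genes, the 15 largest rises and 15 largest falls among shared genes whose genotypes were apart in both states (symbols of unnamed transcripts left out), up to 4 passing members per list (all where 5 or fewer passed in a direction, the 2 largest changes where none did), and the 4 genes with the largest difference between states in each class. The members and lists were chosen with earlier results of these data known. Results for some genes so chosen are not reported here.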

Additional observations from a re-analysis of the deposited data

Results flagged for a closer look

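Among the shared genes named, 9 had a KO effect whose size differed between activated and naive cells by the limma test of that difference (activated minus naive, log2 ± SE, n = 3 arrays per group). Rises in KO cells were smaller in activated cells for 5 genes. For Eomes it was -1.62 ± 0.25, adjusted p = 0.00381, from effects of 1.01 in activated and 2.63 in naive cells. Myb differed by -1.25 ± 0.18, adjusted p = 0.00201, with effects of 0.45 in activated and 1.70 in naive cells. For Arsb it was -1.18 ± 0.20, adjusted p = 0.00751, from effects of 0.94 in activated and 2.13 in naive cells. Cxcr3 differed by -1.15 ± 0.15, adjusted p = 0.00114, with effects of 0.49 in activated and 1.64 in naive cells. For Mef2a it was -1.04 ± 0.19, adjusted p = 0.0139, from effects of 0.39 in activated and 1.43 in naive cells. The rise of Chst11 was larger in activated cells. Chst11 differed by 0.88 ± 0.16, adjusted p = 0.0177, with effects of 1.45 in activated and 0.57 in naive cells. Falls were smaller in activated cells for 3 genes. For S100a4 it was 1.69 ± 0.12, adjusted p = 6.83e-06, from effects of -0.28 in activated and -1.96 in naive cells. Igkv8-30 differed by 0.92 ± 0.14, adjusted p = 0.00417, with effects of -0.93 in activated and -1.85 in naive cells. For Lyz1 it was 0.77 ± 0.17, adjusted p = 0.0443, from effects of -0.29 in activated and -1.06 in naive cells. Igkv8-30 on the activated KO arrays and S100a4 on the naive KO arrays read close to the array medians. So did Arsb on the activated WT arrays and Chst11 on the naive WT arrays. Differences are compressed there, which limits the comparison of the effects of these genes between states.

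Of 6493 probe sets that belong to several genes or to none, and so to no comparison above, 23 passed the same model (0.354%), 3 of them higher and 20 lower in KO cells. The probe set 1425436, shared by the Ly49 receptor genes Klra3 and Klra9, was higher by 2.44 ± 0.41, adjusted p = 0.0118 (1.10 in activated and 3.79 in naive cells). The probe set 1455869, which has no gene symbol, was lower, with an effect of -2.08 ± 0.23, adjusted p = 0.000595 (-1.70 in activated and -2.45 in naive cells).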

How the results depend on the processing

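All 110 shared genes kept the sign of their effect over both states under each alternative in which they were tested, and the counts varied. The alternatives used the arrays that had selected these genes. The counts higher, lower and passing in either direction (76, 34 and 110) became 178, 85 and 300 with 1 mean per group, 168, 77 and 284 with 1 mean per mouse, 121, 55 and 176 with array weights, 26, 9 and 35 on sample numbers 1 to 8 alone (8 arrays), and 158, 67 and 260 by the authors' rule. With each probe set on its own 120 were higher and 40 lower, and at an unadjusted p under 0.05 in both states 149 were higher and 83 lower. With the mouse as a replicate block, the pairing the labels give, 127 passed (90 higher, 37 lower) and all 110 were kept. The correlation between the arrays of a mouse was estimated at -0.026 in that fit. Among the genes named the block changed 1 call, that of S100a6 (-1.26, adjusted p = 0.0498). With 1 mean per mouse 104 of the 110 calls were kept. Leaving out 1 array gave 49 to 98 higher, 19 to 44 lower, 68 to 142 in either direction and 68 to 136 apart in both states. Leaving out 1 mouse gave 37 to 124, 10 to 38, 52 to 162 and 52 to 159. Of 42 named genes that passed, 14 kept the call under all alternatives, 28 lost it under at least 1, and 0 changed sign. With the mean of all probe sets of a gene 70 of the 110 calls were kept, and with the term for sample numbers 101. Fewer arrays give each fit less power, yet without mouse 4 more genes passed in either direction (162) than with all arrays (110). The number of arrays limits precision, and most probe sets lie near the bottom of the scale, where differences are compressed.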
